A study of Homo sapiens with 32 samples.

Results

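The collagen chains are the genes of the tables whose symbol consists of COL, a number, A and a number, such as COL1A1, and nothing more. There were 44 of them among 47137 gene entries, and 42 had values, among 18583 genes with values. RNA came from the cell line HGrC1, derived from human granulosa cells, which surround the oocyte in the ovarian follicle. From each of 4 vials frozen at separate dates, 1 flask served as the vehicle control (0.05% DMSO) and the others were given PFOS (perfluorooctane sulfonate, a persistent surfactant) at 0.01 µM, at 0.1 µM and at 1 µM. The DMSO content of the PFOS flasks is not given in the sources used here. RNA was sequenced at 6 and at 12 weeks. All 8 groups of n = 4 libraries shared the medium, for which the sample labels state 100 nM estradiol and the study's methods 100 nM testosterone. The replicates are therefore separate cultures of 1 cell line, and p-values measure the spread between these cultures.

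Collagens are proteins of the extracellular matrix in which 3 chains wind around each other into a triple helix. Fibrillar chains build the rope-like fibrils of connective tissue, type IV chains build the sheet of basement membranes, and other classes bind to fibrils, form beaded filaments, anchor basement membranes or span the cell membrane. In the ovary, granulosa cells rest on a follicular basal lamina that contains type IV collagen, whereas the surrounding theca and stroma hold fibrillar collagens.

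Total counts per library lay between 17907056 and 18553348. Of the granulosa markers GATA4 was at a mean of 74.1 TPM (a level corrected for gene length, which sums to the same total in each library), WT1 at 38.4, FST at 17.5 and AMH at 13.7. The others were low: INHBA was at 3.83, STAR at 1.83, INHA at 1.58, CYP11A1 at 0.928, FOXL2 at 0.633, NR5A1 at 0.0944 and AMHR2 at 0.0369 TPM. The receptor gene FSHR had no value, and the aromatase gene CYP19A1 had at most 1 count in any library, so most markers that define granulosa cells were low or not detectable. Markers of theca or stroma summed to 0.03 to 1.39 TPM and endothelial markers to 0.15 to 0.66 TPM over the 32 libraries. Of the epithelial markers the keratin KRT18 was at 2613 TPM, against 1.10 for EPCAM and 0.649 for CDH1, and of the leukocyte markers CD68 was at 21.4 TPM, PTPRC at 0.0900, LYZ at 0.372 and CD3E at 0. The third control library at 12 weeks stood apart with 1305 counts of liver markers, against a group median of 300.5, and comparisons that use it were also run without it.

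The promoters shown here belong to chains on which the results below turn: COL4A1 and COL4A2, which were lower together at 0.1 µM PFOS, COL13A1, which was lower at 12 weeks, and COL6A2 and COL7A1, which moved in opposite directions between 6 and 12 weeks. The RefSeq promoter table used here (GRCh38.p14) matched 32 of the 44 chains, the other 12 being COL3A1, COL1A1, COL5A2, COL6A1, COL8A1, COL9A3, COL14A1, COL1A2, COL2A1, COL20A1, COL22A1 and COL6A5. COL4A1 and COL4A2 are transcribed away from each other, with 126 bases between their starts. These bases are shown on the plus strand (chr13:110307158-110307283), and for the other chains the 250 bases before the start are shown on the strand of the gene, COL13A1 at chr10:69801656-69801905 (+), COL6A2 at chr21:46097862-46098111 (+) and COL7A1 at chr3:48595330-48595579 (-). Capitals mark matches, on either strand, to TATAAA from the TATA box, to CCAAT from the CCAAT box and to GGGCGG from the GC box. No match overlapped another in these windows.
COL4A1 and COL4A2: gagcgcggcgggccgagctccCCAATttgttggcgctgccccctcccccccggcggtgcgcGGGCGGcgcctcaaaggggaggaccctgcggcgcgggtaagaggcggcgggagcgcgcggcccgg
COL13A1: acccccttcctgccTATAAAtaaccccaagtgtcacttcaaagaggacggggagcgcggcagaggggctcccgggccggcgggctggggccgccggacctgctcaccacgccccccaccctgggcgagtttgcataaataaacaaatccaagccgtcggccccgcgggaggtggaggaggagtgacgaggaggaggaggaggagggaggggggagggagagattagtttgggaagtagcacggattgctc
COL6A2: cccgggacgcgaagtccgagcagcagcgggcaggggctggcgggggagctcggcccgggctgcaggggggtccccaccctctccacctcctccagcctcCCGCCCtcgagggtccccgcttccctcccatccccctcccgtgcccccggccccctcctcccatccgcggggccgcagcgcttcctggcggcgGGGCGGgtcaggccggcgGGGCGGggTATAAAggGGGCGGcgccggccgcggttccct
COL7A1: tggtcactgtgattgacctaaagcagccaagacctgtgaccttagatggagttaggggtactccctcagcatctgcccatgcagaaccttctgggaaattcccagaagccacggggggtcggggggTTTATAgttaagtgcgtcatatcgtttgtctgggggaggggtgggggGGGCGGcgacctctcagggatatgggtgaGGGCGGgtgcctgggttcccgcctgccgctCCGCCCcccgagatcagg

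The stretch between COL4A1 and COL4A2 held 1 CCAAT and 1 GGGCGG match and no TATAAA match, and 80.2% of its bases were G or C. Windows of 126 bases held CCAAT in 21.9%, GGGCGG in 34.6% and TATAAA in 6.23% of 27305 promoters. COL13A1, COL6A2 and COL7A1 each held 1 TATAAA match, which 11.1% of promoters of 250 bases hold. Of the 32 chain promoters of 250 bases, 5 held TATAAA, so most chains lacked the match. COL6A2 held 4 and COL7A1 held 3 GGGCGG matches, COL13A1 held none, and 42.3% of promoters of that length hold at least 1. No CCAAT match lay in these last windows, which 33% of promoters hold. These are matches of letters only.

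HGrC1 cells expressed a small number of collagen chains at high level. COL3A1 (chromosome 2, 188974373 to 189012746 on GRCh38), the chain of type III collagen of distensible tissues, and COL1A1 (chromosome 17, 50184101 to 50201631), a chain of type I collagen, the main fibril protein of connective tissue, had nearly the same level, with means of 580 and 579 TPM over the 32 libraries. The type IV chains COL4A2 (chromosome 13, 110307284 to 110513209) and COL4A1 (chromosome 13, 110148963 to 110307157) followed with 346 and 284 TPM. Together these 4 chains made up 73.9% ± 1.18 (SD, n = 32) of the summed TPM of all collagen chains, which itself was 0.242% ± 0.0193 (SD, n = 32) of all TPM.

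At 6 weeks COL3A1 measured 650, 598, 565 and 539 TPM in the control, 563, 624, 665 and 654 at 0.01 µM, 695, 627, 676 and 626 at 0.1 µM and 637, 488, 650 and 580 at 1 µM. At 12 weeks it measured 457, 569, 592 and 541 TPM in the control, 485, 450, 645 and 531 at 0.01 µM, 469, 526, 602 and 517 at 0.1 µM and 499, 574, 669 and 598 at 1 µM. Each PFOS group overlapped with the control of its time, and at 0.1 µM all 6-week libraries lay above all 12-week libraries.

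At 6 weeks COL1A1 measured 518, 621, 563 and 666 TPM in the control, 584, 603, 613 and 644 at 0.01 µM, 576, 610, 646 and 596 at 0.1 µM and 589, 531, 551 and 571 at 1 µM. At 12 weeks it measured 542, 518, 609 and 626 TPM in the control, 599, 514, 437 and 405 at 0.01 µM, 568, 548, 522 and 519 at 0.1 µM and 722, 696, 592 and 630 at 1 µM. The lowest and the highest of the 32 values were thus both found at 12 weeks, at 0.01 and at 1 µM. The ratio of COL1A1 to COL3A1 TPM was 1.01 ± 0.161 (SD, n = 32), so the order of the 2 leading chains changed between libraries.

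At 6 weeks COL4A2 measured 376, 361, 382 and 405 TPM in the control, 378, 368, 339 and 377 at 0.01 µM, 340, 339, 358 and 332 at 0.1 µM and 352, 339, 341 and 325 at 1 µM. At 12 weeks it measured 331, 313, 328 and 316 TPM in the control, 367, 318, 264 and 278 at 0.01 µM, 358, 324, 349 and 357 at 0.1 µM and 373, 343, 361 and 377 at 1 µM. Every control library at 6 weeks lay above every 0.1 and 1 µM library of that time, and at 12 weeks every 1 µM library lay above the controls.

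COL4A1 measured 312, 299, 320 and 339 TPM in the control, 308, 295, 249 and 289 at 0.01 µM, 274, 270, 288 and 271 at 0.1 µM and 283, 288, 274 and 269 at 1 µM after 6 weeks. After 12 weeks it measured 272, 259, 286 and 275 TPM in the control, 293, 262, 207 and 235 at 0.01 µM, 285, 268, 291 and 305 at 0.1 µM and 335, 294, 293 and 295 at 1 µM. As for COL4A2, the 6-week controls were the highest libraries of their time, apart from an overlap with 0.01 µM. The ratio of COL4A2 to COL4A1 was 1.22 ± 0.0488 (SD, n = 32) and lay between 1.11 and 1.36 in all libraries.

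At 6 weeks COL5A2 (chromosome 2, 189031898 to 189441111), a chain of type V collagen, which sits in fibrils and limits their diameter, measured 225, 214, 208 and 202 TPM in the control, 206, 204, 205 and 210 at 0.01 µM, 218, 211, 225 and 206 at 0.1 µM and 222, 188, 225 and 204 at 1 µM. At 12 weeks it measured 134, 145, 170 and 154 TPM in the control, 147, 130, 153 and 148 at 0.01 µM, 137, 132, 163 and 154 at 0.1 µM and 156, 154, 176 and 163 at 1 µM. All 16 libraries of 6 weeks lay above all 16 of 12 weeks. Its partner COL5A1 was at 153 TPM on average, 126 to 176 TPM by group mean.

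Below these 6 chains, the order is that of means over both times, and it differed between the times. COL18A1, a basement membrane collagen whose end fragment is endostatin, was at 120 TPM, with group means of 111 to 134. COL12A1, which coats fibrils, was at 67.5 TPM, with group means of 54.8 to 81.7. The X-linked type IV chains COL4A5 and COL4A6 were at 35.2 and 16.7 TPM, with group means of 27.5 to 39.4 and of 13.3 to 18.3. COL6A2 and COL6A1, chains of the beaded filaments of type VI collagen, were at 12.5 and 11.8 TPM, and their spread over libraries, 7.91 to 19.0 and 8.06 to 17.0 TPM, overlapped almost fully. COL7A1, the chain of anchoring fibrils, was at 8.33 TPM, with group means of 5.50 to 11.1.

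Of the remaining chains with a mean of at least 1 TPM, the type VIII network chains COL8A2 and COL8A1 were at 5.89 and 3.89 TPM, and COL16A1, a fibril-associated chain, was at 4.97. COL6A6, another type VI chain, was at 4.23 TPM. The membrane-spanning COL13A1 was at 2.41 TPM, the fibril-associated type IX chains COL9A2 and COL9A3 were at 2.28 and 1.31, and the fibrillar COL27A1 was at 1.19. In all, 21 chains reached a mean of 1 TPM over the 32 libraries. COL13A1 had group means of 3.76 to 3.98 TPM at 6 weeks and of 0.685 to 1.36 TPM at 12 weeks. In the control, COL8A1 and COL8A2 were at 6.03 and 5.86 TPM at 6 weeks and at 2.58 and 6.46 TPM at 12 weeks, and COL7A1 and COL6A2 were at 10.6 and 10.4 TPM at 6 weeks and at 5.51 and 16.8 TPM at 12 weeks. Neighbours in this order were often within each other's spread: COL8A2 and COL16A1 measured 4.83 to 7.64 and 3.61 to 6.69 TPM over the libraries.

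**Figure D1:**
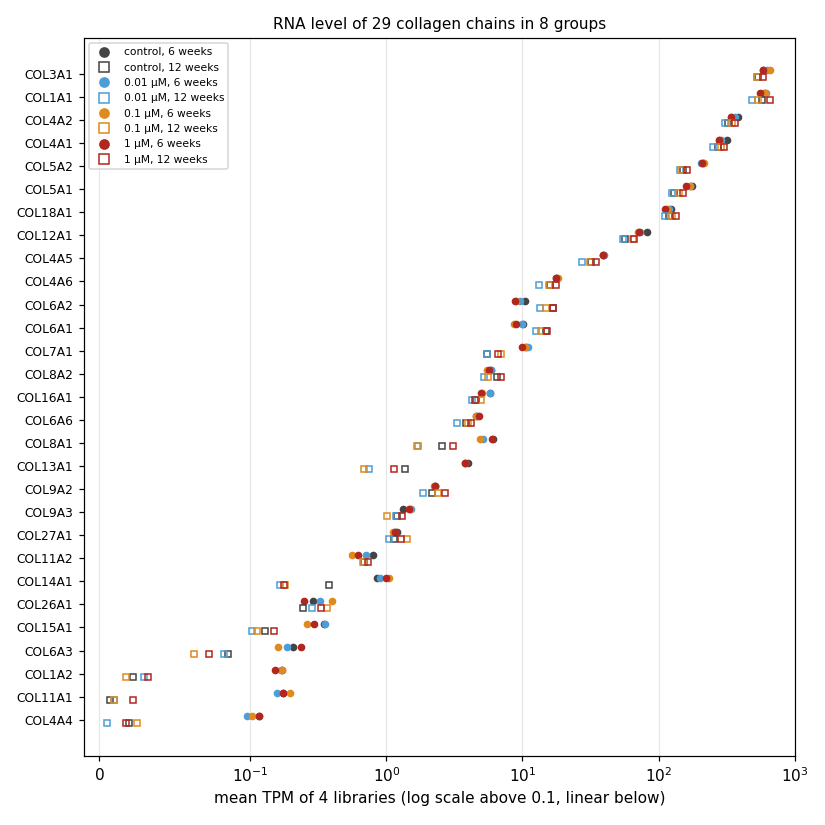
RNA level of the 29 collagen chains that passed the filter on low counts at 6 weeks, as mean TPM of the 4 libraries of each group (horizontal axis, logarithmic above 0.1 TPM and linear below). Circles are 6 weeks and open squares 12 weeks, coloured by PFOS concentration. COL3A1 and COL1A1 lead at means of 580 and 579 TPM, and the wide gaps between circles and squares lie among low chains such as COL13A1 and COL8A1.

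Several partner chains were nearly absent. Type I collagen is usually made of COL1A1 and COL1A2 chains, yet COL1A2 had a mean of 5.47 counts per library against 39336 for COL1A1. At 6 weeks COL1A2 had 5 to 15 counts and at 12 weeks 0 to 3. COL6A3, the third chain of the usual type VI molecule, had 14.1 counts on average (0.136 TPM, against 11.8 for COL6A1). Of the type IV chains, COL4A3 and COL4A4 were at 0.0231 and 0.0622 TPM, in contrast to the 4 other type IV genes. Each type IV pair is arranged head to head, with 126 bases between the genes of COL4A1 and COL4A2, 135 between those of COL4A4 and COL4A3 and 379 between those of COL4A6 and COL4A5.

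Of 42 chains, 38 had at least 1 count in 1 library. COL9A1, COL22A1, COL24A1 and COL25A1 were listed at 0 in all 32 libraries, and COL19A1 and COL6A5 had no value. A count of 0 at this depth allows up to 3 counts in a library, for counting error only. COL21A1, COL2A1, COL4A3, COL28A1, COL17A1, COL5A3, COL10A1, COL23A1 and COL20A1 had means of at most 1.59 counts and passed the filter at neither time. By class, fibrillar chains held 61.7% ± 2.09 (SD, n = 32) of the summed collagen TPM and basement membrane network chains 28.2% ± 1.59 (SD, n = 32).

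To ask whether PFOS changed collagen RNA, each concentration was compared with the control of the same time by edgeR's quasi-likelihood test, with p-values adjusted over all genes tested (Benjamini-Hochberg) and a gene called at an adjusted p of at most 0.05. The 3 comparisons of a time share their control libraries. A low-count filter left 29 chains at 6 weeks and 25 at 12 weeks. In bulk RNA, fewer cells of a type and less RNA per cell cannot be told apart.

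At 6 weeks, 3 chains were lower at 0.1 µM PFOS by small amounts, and no chain was higher. They were COL4A1 and COL4A2, the common chains of basement membranes, and COL6A1 of the beaded filaments. These were 3 of 29 chains, beside 4.24% of all genes called in this comparison and 2.69% called lower. The median log2 fold change was −0.04 over the chains and 0.000423 over all genes.

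COL4A1 measured 1273, 1224, 1300 and 1357 CPM (counts scaled by the library total) in the control and 1146, 1101, 1178 and 1138 CPM at 0.1 µM. It measured 1243, 1211, 1040 and 1180 CPM at 0.01 µM and 1176, 1214, 1150 and 1155 CPM at 1 µM. The control did not overlap with 0.1 or 1 µM. At 0.1 µM the level was 1.13-fold lower (log2 fold change −0.18, SE 0.0434, n = 4 and 4, adjusted p 0.0207, edgeR), and at 1 µM the log2 fold change was −0.13 (SE 0.0434, adjusted p 0.167, edgeR).

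COL4A2 measured 1509, 1457, 1526 and 1600 CPM in the control and 1398, 1362, 1448 and 1370 CPM at 0.1 µM. It measured 1507, 1488, 1398 and 1516 CPM at 0.01 µM and 1440, 1406, 1411 and 1377 CPM at 1 µM. Again neither 0.1 nor 1 µM overlapped with the control. The log2 fold change was −0.13 at 0.1 µM (SE 0.0350, adjusted p 0.0328, edgeR) and −0.11 at 1 µM (SE 0.0350, adjusted p 0.151, edgeR).

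COL6A1 (chromosome 21, 45981770 to 46005048) measured 24.9, 25.9, 25.7 and 26.0 CPM in the control and 21.1, 22.3, 24.4 and 21.6 CPM at 0.1 µM. It measured 24.9, 26.4, 24.6 and 26.7 CPM at 0.01 µM and 23.7, 24.7, 23.3 and 23.9 CPM at 1 µM. The highest library at 0.1 µM lay just below the lowest control. The log2 fold change at 0.1 µM was −0.20 (SE 0.0531, adjusted p 0.0328, edgeR). For each of these 3 chains the exact two-sided permutation test of log2(CPM + 1) gave p = 0.0286, the smallest that 4 against 4 libraries allow. Groups that do not overlap always give this value, so it adds nothing to the calls. The same test gave 0.0286 for each of the 3 at 1 µM, where none was called.

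These calls were not stable. Without the libraries of replicate 1, 3 or 4, or with all 32 libraries in 1 fit, none of the 3 was called. COL12A1 had 456, 464, 460 and 457 CPM in the control and 389, 441, 410 and 404 CPM at 0.1 µM (log2 fold change −0.17, adjusted p 0.0762, edgeR), and passed with the vial as a block (adjusted p 0.0270). It also passed with DESeq2, without replicate 2 and in a fit of the 8 libraries compared. The share of counts from mitochondrial genes moved with the group: it was 4.80 to 5.04% in the 6-week control and 5.52 to 6.71% at 0.1 µM, and liver markers summed to 173 to 227 and to 319 to 389 counts. Epithelial markers, nearly all from KRT18, summed to 35905 to 37913 counts in the control and to 32981 to 34500 at 0.1 µM, and leukocyte markers to 354 to 411 and to 418 to 507 counts. Their part in the result was not tested.

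At 6 weeks no chain was called at 0.01 µM, beside 0% of all genes, or at 1 µM, beside 0.28% (edgeR). An unadjusted p under 0.05 (edgeR) was found for 2 and 7 of 29 chains, beside 1232 and 1757 of 12836 genes. DESeq2 called 0 and 2 chains, the latter COL4A2 (log2 fold change −0.11 with edgeR) and COL5A1 (−0.10).

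**Figure D2:**
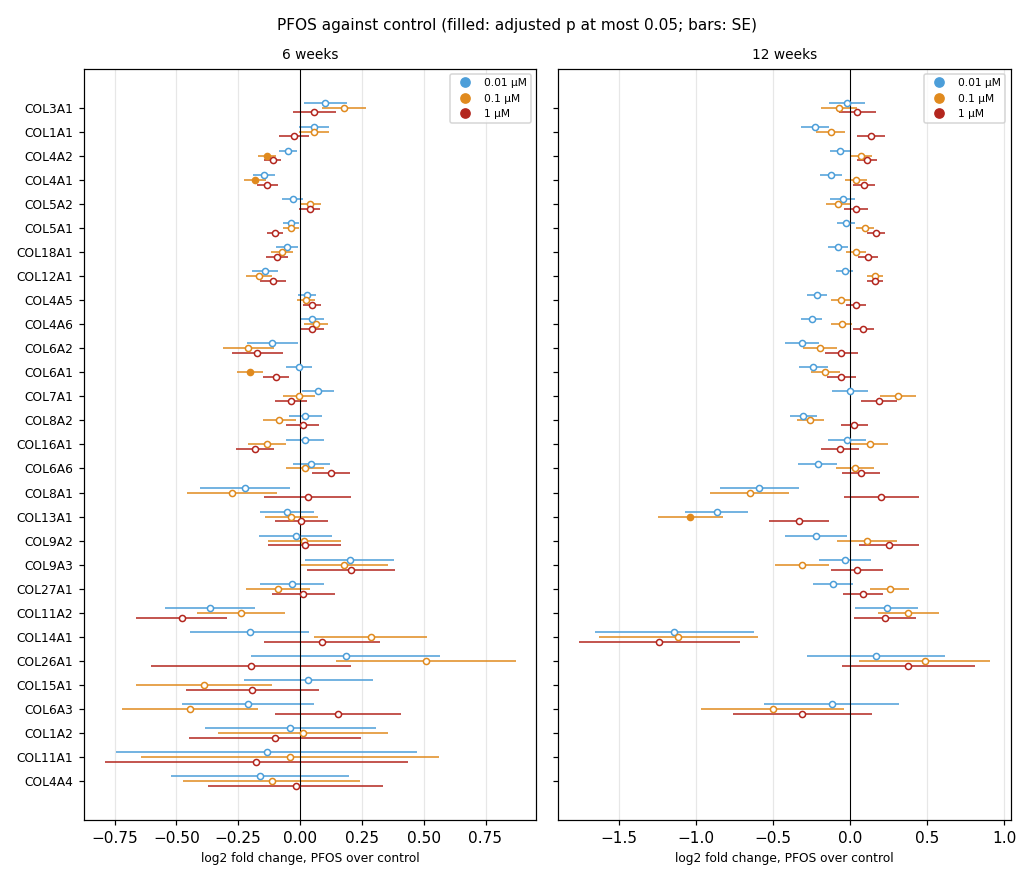
Log2 fold change of each tested chain, PFOS over control, at 6 weeks (left, 29 chains) and 12 weeks (right, 25 chains), with colours for concentration, bars for the SE and filled points for an adjusted p of at most 0.05 (edgeR). The filled points are COL4A1, COL4A2 and COL6A1 at 0.1 µM and 6 weeks and COL13A1 at 0.1 µM and 12 weeks. The horizontal scales of the panels differ.

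At 12 weeks, 1 of 25 chains was called at 0.1 µM, beside 1.07% of all genes and 0.542% called lower. It was COL13A1 (chromosome 10, 69801906 to 69959144), whose product spans the plasma membrane and takes part in cell adhesion, and it was the single chain that also met a change of 2-fold, which 0.0942% of all genes did in this comparison. COL13A1 measured 1.70, 2.03, 3.18 and 2.95 CPM in the control and 1.26, 1.16, 1.16 and 1.26 CPM at 0.1 µM. It measured 1.60, 1.04, 1.41 and 1.36 CPM at 0.01 µM and 2.31, 2.14, 1.82 and 1.71 CPM at 1 µM. All libraries at 0.01 and 0.1 µM lay below all controls, whereas 1 µM overlapped with them.

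The level of COL13A1 at 0.1 µM was 2.05-fold lower (log2 fold change −1.04, SE 0.210, n = 4 and 4, adjusted p 0.0176, edgeR). At 0.01 µM the log2 fold change was −0.86 (SE 0.206, adjusted p 0.472, edgeR) and at 1 µM −0.33 (SE 0.195, adjusted p 0.646, edgeR). The exact two-sided permutation p was 0.0286 at 0.01 and 0.1 µM, the value that groups without overlap always give. The gene had 19 to 59 counts in the libraries of 12 weeks. Without the third control library, which stood apart, the log2 fold change at 0.1 µM was −0.88 with an adjusted p of 0.101 (edgeR), and it was also not called without replicate 2, 3 or 4 (adjusted p 0.0604, 0.378 and 0.178) or in a fit of the 8 libraries compared (0.0510).

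At 12 weeks no chain was called at 0.01 µM (0% of all genes) or 1 µM (0.22% of all genes) by edgeR or DESeq2. An unadjusted p under 0.05 (edgeR) was found for 9 and 3 of 25 chains, beside 1080 and 1115 of 12742 genes. At 0.01 µM, 22 of 25 chains had a log2 fold change below 0 (median −0.12, all genes 0.00233), and at 1 µM, 19 of 25 were above 0 (median 0.09, all genes −0.00410). These 2 comparisons share the control libraries, and none of these values passed the test. At 0.01 µM, libraries 3 and 4 were lower than 1 and 2 in several chains, and the 4 libraries measured 2219, 1954, 1706 and 1598 CPM for COL1A1, 1209, 1107, 896 and 1031 CPM for COL4A1 and 1489, 1321, 1127 and 1198 CPM for COL4A2. Other chains went the other way: COL3A1 measured 1664, 1583, 2327 and 1938 CPM and COL5A2 634, 572, 696 and 677 CPM. Without replicate 3, 17 of 25 chains were below 0 (median −0.05), and without replicate 4, 19 of 25 were (median −0.06). At 1 µM, 15 of 25 were above 0 without replicate 1 (median 0.02). COL7A1 had 38.3, 34.4, 32.5 and 27.7 CPM in the control and 45.9, 41.6, 41.8 and 37.5 CPM at 0.1 µM (log2 fold change 0.31, adjusted p 0.216, edgeR), and passed with the vial as a block (adjusted p 0.0456). It also passed without replicate 1.

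**Figure D3:**
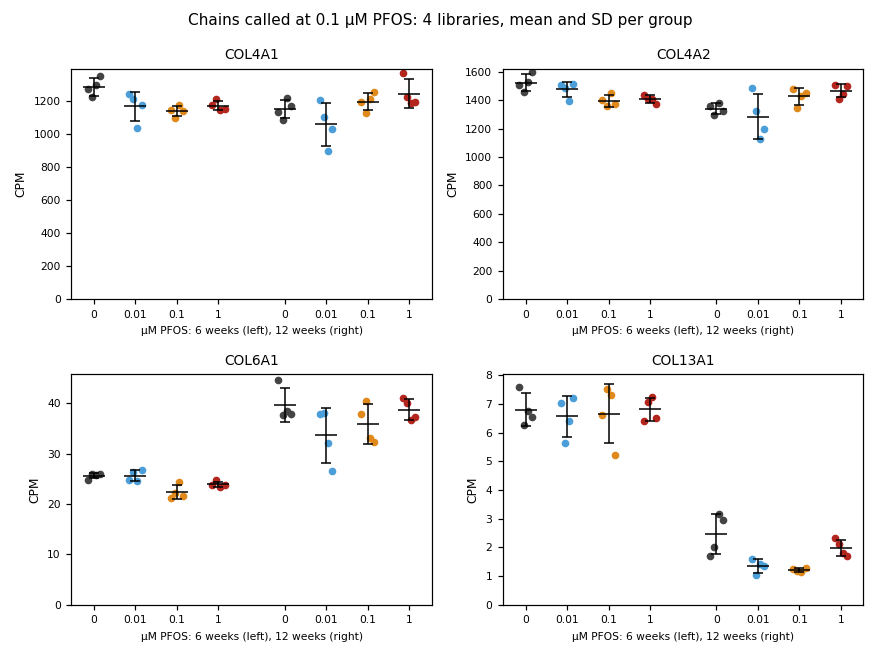
CPM in every library (points) with the group mean and SD (black) for the 4 chains called at 0.1 µM PFOS, at 6 weeks (left of each panel) and 12 weeks (right), on axes that start at 0. COL4A1, COL4A2 and COL6A1 differ little between groups of a time, while COL13A1 falls from 6.80 CPM in the 6-week control to 2.46 CPM at 12 weeks and to 1.21 CPM at 0.1 µM.

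Whether the PFOS change itself differed between the times was tested as an interaction over all 32 libraries. At 0.1 µM, 2 of 29 chains passed, beside 0.208% of all genes. For COL13A1 the log2 fold change at 12 weeks minus that at 6 weeks was −1.0002 (SE 0.226, adjusted p 0.0445, edgeR), since at 6 weeks it measured 7.61, 6.28, 6.76 and 6.57 CPM in the control and 6.61, 7.52, 7.32 and 5.23 CPM at 0.1 µM. For COL12A1 this difference was 0.33 (SE 0.0744, adjusted p 0.0445, edgeR). COL12A1 had 329, 324, 344 and 323 CPM in the 12-week control and 361, 378, 371 and 383 CPM at 0.1 µM, so that the libraries at 0.1 µM were all lower than the control at 6 weeks and all higher at 12 weeks.

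Both interaction calls were lost under several settings. With no filter on low counts, with a stricter filter (10 counts or more in each library), without replicate 2, 3 or 4, and without the third 12-week control library, 0 chains passed. No chain passed the interaction at 0.01 µM (0% of all genes) or 1 µM (0.123% of all genes). There 7 and 7 of 29 chains had an unadjusted p under 0.05 (edgeR), beside 972 and 1571 of 12988 genes. DESeq2 called 0 and 2 chains there. COL4A1 and COL4A2, lower at 6 weeks, had interaction values of 0.22 and 0.21 at 0.1 µM (adjusted p 0.226 and 0.188, edgeR).

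Between 6 and 12 weeks of culture, many more chains changed. In the control 19 of 29 chains passed (16 lower and 3 higher), beside 36.6% of all genes (19.3% lower and 17.3% higher). At 0.01 µM 20 chains passed (18 lower and 2 higher), beside 42.7% of all genes (21.3% lower and 21.4% higher), and at 0.1 µM 19 passed (16 lower and 3 higher), beside 40.3% (20.6% lower and 19.7% higher). At 1 µM 16 passed (12 lower and 4 higher), beside 30.1% (15.9% lower and 14.2% higher). The median log2 fold change over the chains was −0.22 in the control, −0.36 at 0.01 µM, −0.20 at 0.1 µM and −0.18 at 1 µM, against medians of 0.00404 to 0.0104 over all genes. Among the chains called lower in each group were COL11A1, COL1A2, COL4A4 and COL15A1, which passed the filter through their 6-week libraries alone, so that their fall was set by the filter and supports nothing. Of the 25 chains that passed at both times, a count added after the data were seen, 15 were called in the control (12 lower and 3 higher), 16 at 0.01 µM (14 lower and 2 higher), 15 at 0.1 µM (12 lower and 3 higher) and 12 at 1 µM (8 lower and 4 higher). Of all genes that passed at both times 36.6, 42.8, 40.3 and 29.8% were called. Lower were 19, 21, 20.2 and 15.4%, and higher were 17.5, 21.8, 20.1 and 14.4%. The medians over these 25 chains were −0.17, −0.29, −0.17 and −0.05. The 4 comparisons share no libraries, but their cultures come from the same 4 vials. Of the 25 chains, 10 were called in each of the 4 comparisons, 8 lower and 2 higher. The share of all genes called in each of the 4 was not computed, so this count is not read as particular to the chains. Without the third 12-week control library, which stood apart, 17 of the 29 chains passed in the control: COL8A2 (adjusted p 0.125), COL16A1 (0.0877) and COL11A2 (0.0892) were no longer called, and COL4A1 was (log2 fold change −0.18, adjusted p 0.0367, edgeR). Time in culture, passage number and harvest cannot be told apart here.

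Among the fibrillar chains, COL5A2 fell in every exposure group. Its mean in the control was 902 ± 48.7 CPM (SD, n = 4) at 6 weeks and 666 ± 74.9 CPM (SD, n = 4) at 12 weeks, and the log2 fold change lay between −0.54 and −0.42 over the 4 groups. COL5A1 had 943, 903, 908 and 961 CPM in the 6-week control and 705, 717, 718 and 696 CPM at 12 weeks (log2 fold change −0.38, adjusted p 6.5e-08, edgeR). It fell in 3 groups, and at 1 µM its log2 fold change was −0.10 (adjusted p 0.0829, edgeR). The interaction at 1 µM was 0.27 (adjusted p 0.0956, edgeR).

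The 2 leading chains moved little. COL3A1 was lower at 0.1 µM alone among the calls (log2 fold change −0.30, adjusted p 0.0339, edgeR) and COL1A1 at 0.01 µM alone (−0.25, adjusted p 0.0140, edgeR), while their control values were −0.05 and 0.03. COL3A1 was not called without replicate 1, 2 or 4 (adjusted p 0.128, 0.0524 and 0.144, edgeR), nor COL1A1 without replicate 3 or 4 (0.124 and 0.156). A call in 1 group and not in another does not show that the groups differ, and none of the interactions for these chains passed. COL27A1 was higher at 0.1 µM (0.36, adjusted p 0.0158, edgeR, and 0.131 without replicate 2). COL11A2 was lower in the control (−0.53, adjusted p 0.0255, edgeR) with 0.08 to 0.18 in the PFOS groups, and was not called without replicate 1, 3 or 4 (adjusted p 0.0539, 0.129 and 0.0734).

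Of the basement membrane chains, COL4A5 fell in each group (log2 fold change −0.45 to −0.22), at 1 µM not without replicate 4 (−0.14, adjusted p 0.0891, edgeR). COL4A6 fell at 0.01 and 0.1 µM (−0.38 and −0.20) and COL4A2 in the control and at 0.01 µM (−0.17 and −0.18). The COL4A2 calls were lost without replicate 2 or 4 in the control (adjusted p 0.0520 and 0.107, edgeR) and without replicate 3 or 4 at 0.01 µM (0.0648 and 0.0807). COL4A1 passed in none with all libraries, with values between −0.15 and 0.08. The basement membrane collagen COL18A1 passed at 1 µM, where it rose by 0.23 (adjusted p 0.00238, edgeR).

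The beaded filament chains split. COL6A1 and COL6A2 rose in each exposure group, by 0.42 to 0.69 and by 0.58 to 0.89 on the log2 scale. COL6A2 had 16.4, 22.5, 19.8 and 24.4 CPM in the 6-week control and 34.2, 38.4, 33.9 and 33.7 CPM at 12 weeks, without overlap. COL6A1 had 44.6, 37.8, 38.5 and 37.8 CPM in the 12-week control, all above the 24.9 to 26.0 CPM of 6 weeks. COL6A3, in contrast, fell in each group (−1.69 to −1.14) from 88 to 37 counts in the sum of 4 control libraries. The COL6A3 call was lost at 0.1 µM without replicate 1 (−1.29 with it, −0.80 without it, adjusted p 0.155, edgeR) and at 0.01 µM without replicate 3 (−0.97, adjusted p 0.0572, edgeR). COL6A6 passed at 0.01 µM alone (−0.43). The ratio of COL6A1 to COL6A2 TPM was 1.01 ± 0.0937 (SD, n = 16) at 6 weeks and 0.910 ± 0.0630 (SD, n = 16) at 12 weeks.

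COL7A1, which forms the anchoring fibrils under epithelia, fell in each group (−0.94 to −0.56). In the control it had 65.0, 66.1, 55.5 and 58.9 CPM at 6 weeks and 38.3, 34.4, 32.5 and 27.7 CPM at 12 weeks, without overlap. The fibril-associated COL12A1 also fell in each group, by more in the control (−0.46) than at 0.1 µM (−0.13), the difference that the interaction above tested. At 0.1 µM the COL12A1 call was lost without replicate 2, 3 or 4 (adjusted p 0.156, 0.102 and 0.0611, edgeR), and at 1 µM without replicate 2 (−0.18 with it, −0.12 without it, adjusted p 0.147). COL16A1 fell in the control and at 0.01 µM (−0.32 and −0.36), in the control not without replicate 3 or 4 (adjusted p 0.0699 and 0.0679, edgeR) and at 0.01 µM not without replicate 2 (0.0747). COL9A3 fell at 0.1 µM (−0.55, adjusted p 0.00971, edgeR, and 0.124 without replicate 1). COL14A1, which also binds fibrils, had 4.19, 3.99, 3.08 and 2.92 CPM in the 6-week control and 0.714, 1.15, 3.56 and 0.709 CPM at 12 weeks. The third 12-week library, which stood apart, lay within the range of 6 weeks, and the log2 fold change was −1.19 with it and −2.03 without it (adjusted p 0.0117 and 1.4e-05, edgeR). Without replicate 1, 2 or 4 the control change of COL14A1 did not pass (adjusted p 0.160, 0.111 and 0.0672). At 0.01, 0.1 and 1 µM its log2 fold change was −2.11, −2.58 and −2.51 (adjusted p 0.000247, 1.26e-05 and 4.88e-05, edgeR). These calls at the PFOS concentrations held in the 10 alternatives that tested the chain. Libraries of 12 weeks had 6 to 66 counts of COL14A1.

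Of the partners of type VIII collagen, COL8A1 was lower at 12 weeks. COL8A1 had 23.3, 14.2, 22.7 and 21.9 CPM in the 6-week control and 8.12, 6.24, 12.4 and 9.77 CPM at 12 weeks, and it fell in each group (−1.53 to −0.97). COL8A2 rose in the control and at 1 µM (0.21 and 0.23), and had −0.11 and 0.04 at 0.01 and 0.1 µM. These COL8A2 calls did not hold: the control call was lost without replicate 1, 3 or 4, without the third 12-week control library and in a fit of the 8 libraries compared, with a log2 fold change down to 0.11 (adjusted p up to 0.385, edgeR), and the 1 µM call was lost without replicate 1, 2 or 3 (adjusted p up to 0.165). The ratio of COL8A2 to COL8A1 TPM was 1.08 ± 0.222 (SD, n = 16) at 6 weeks, with a highest value of 1.53, and 2.87 ± 0.598 (SD, n = 16) at 12 weeks, with a lowest value of 1.66.

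COL13A1 had the largest fall among chains with over 10 counts in every library. It fell by 1.45 in the control, 2.25 at 0.01 µM, 2.45 at 0.1 µM and 1.78 at 1 µM on the log2 scale, and no library of 12 weeks (19 to 59 counts) overlapped with one of 6 weeks (94 to 138 counts). COL14A1, which had as few as 6 counts in a library, fell by more at 0.1 and 1 µM. In the control and at 0.01 µM COL14A1 fell by less than COL13A1.

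The 4 chains that passed the filter through their 6-week libraries alone are given as counts, with no reading of their direction. Over 16 libraries each, COL11A1, a fibrillar chain of cartilage, had 210 counts at 6 weeks and 11 at 12 weeks. COL1A2 had 152 and 23 counts, and COL4A4 had 178 and 18. Each of these had at most 3 counts in any library of 12 weeks. COL15A1, a relative of COL18A1 in basement membrane zones, had 299 and 119 counts, with 11 to 29 per library at 6 weeks and 3 to 11 at 12 weeks. Its call was also lost at 0.1 µM without replicate 3 (log2 fold change −1.19 with it, −0.76 without it, adjusted p 0.104, edgeR) and at 1 µM without replicate 2 or 3 (adjusted p 0.0807 and 0.137).

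Markers of other cells moved with culture time as well. In the control, endothelial markers summed to 33 to 45 counts at 6 weeks and 15 to 22 at 12 weeks, and the theca or stroma markers, of which LHCGR had no value and CYP17A1 had at most 1 count, to 21 to 31 and 7 to 12 counts. The granulosa markers summed to 4698 to 4828 and 4417 to 4551 counts. Liver markers were higher, with 173 to 227 counts at 6 weeks (median 181) and 261 to 1305 at 12 weeks (median 300.5). Leukocyte markers, at 354 to 411 and 267 to 431 counts, and epithelial markers, at 35905 to 37913 and 33591 to 37643, overlapped between the times. Their part in the result was not tested.

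**Figure D4:**
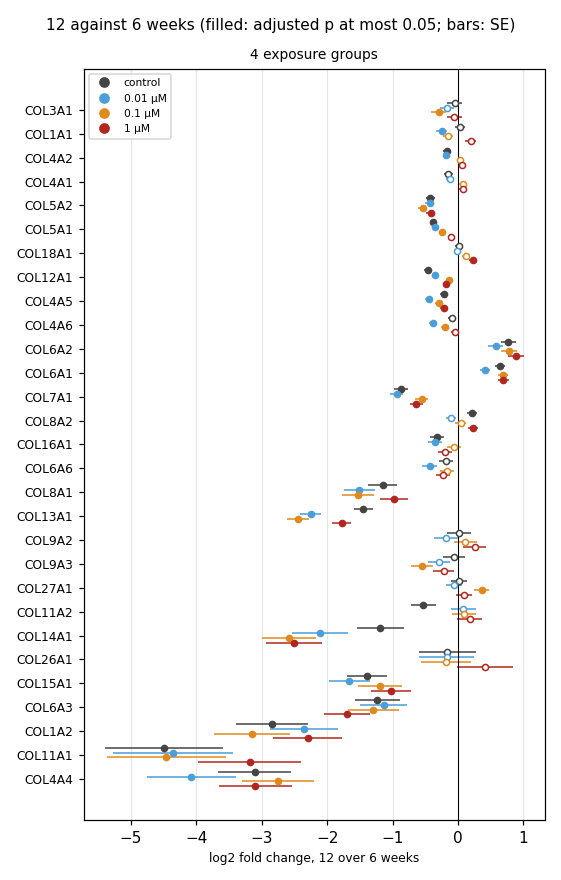
Log2 fold change of 29 chains, 12 over 6 weeks, in the control and at each PFOS concentration (colours), with bars for the SE and filled points for an adjusted p of at most 0.05 (edgeR). COL6A1 and COL6A2 lie above 0 in all 4 groups, and COL5A2, COL7A1, COL8A1 and COL13A1 lie below 0 in all 4. COL1A2, COL11A1 and COL4A4 at the bottom rest on at most 3 counts per library at 12 weeks.

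**Figure D5:**
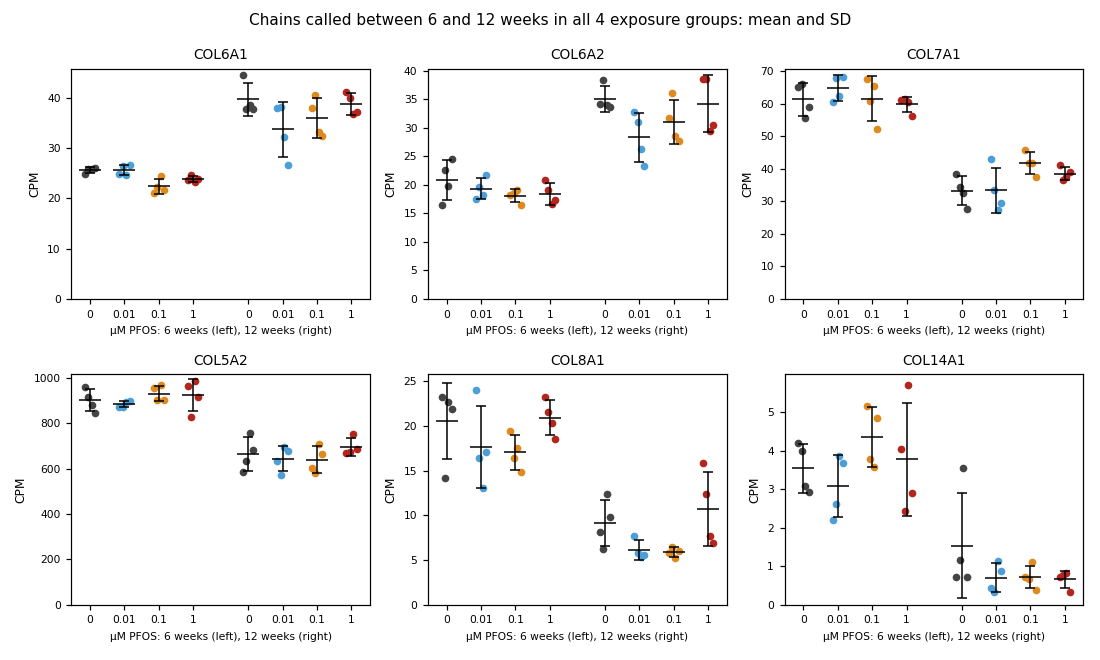
CPM in every library (points) with group mean and SD (black) for 6 chains called between 6 and 12 weeks in all 4 exposure groups, on axes that start at 0. COL6A1 and COL6A2 are higher at 12 weeks (right of each panel), the other 4 are lower, and 1 control library of COL14A1 at 12 weeks, at 3.56 CPM, lies within the range of 6 weeks.

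Collagen chains are modified, folded, trimmed and crosslinked by a set of dedicated proteins. Of 36 genes for these steps, 35 were tested, and 1 was called in the PFOS comparisons, at 0.1 µM and 6 weeks, where 4.24% of all genes were called. PLOD3, a lysyl hydroxylase that also adds sugars to collagen, had 66.9 ± 2.86 CPM (SD, n = 4) in the 6-week control and 58.8 ± 4.07 CPM (SD, n = 4) at 0.1 µM (log2 fold change −0.19, SE 0.0455, adjusted p 0.0194, edgeR). Between 6 and 12 weeks in the control 22 of 35 passed, 8 higher and 14 lower, with a median log2 fold change of −0.06, beside 36.6% of all genes called (17.3% higher and 19.3% lower). At 0.01, 0.1 and 1 µM 27, 20 and 14 of 35 passed, beside 42.7, 40.3 and 30.1% of all genes, with medians of −0.15, −0.10 and −0.000211. The smallest p-values belonged to the lysyl oxidase LOXL2 (537.6 to 363 CPM, log2 fold change −0.55), the prolyl 4-hydroxylase subunit P4HA3 (11.9 to 5.65 CPM, −1.05) and the prolyl 3-hydroxylase P3H2 (102.4 to 72.9 CPM, −0.48). The chaperone SERPINH1, which binds the procollagen triple helix, was at 644 TPM and P4HB at 605 TPM, near the level of COL3A1.

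Of 10 genes for collagen receptors and uptake, 8 were tested against the control at each time and 9 between times. None was called in the PFOS comparisons (edgeR). Between 6 and 12 weeks 3 of 9 passed in the control, beside 36.6% of all genes, and 5, 6 and 4 of 9 at 0.01, 0.1 and 1 µM, beside 42.7, 40.3 and 30.1%, all of them lower. The share in the control is near that of all genes. The 3 were the uptake receptor MRC2 (264 to 203 CPM, log2 fold change −0.36), the integrin chain ITGA1 (76.9 to 45.5 CPM, −0.74) and the integrin chain ITGA11 (1.54 to 0.339 CPM, −2.14). ITGA11 lay near the floor, at 0.01 to 0.32 TPM over the libraries. It may have passed the filter through its 6-week libraries alone, so its fall is given without a reading, also where it enters the counts above. ITGB1, the shared partner of the collagen-binding integrins, was at 414 TPM.

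Of 15 fibril partners, 14 had values and 10 or 11 were tested, and none was called in the PFOS comparisons (edgeR). In the control 7 of 11 passed between 6 and 12 weeks, 3 higher and 4 lower, beside 36.6% of all genes. With 10 partners tested at 6 weeks and 11 at 12 weeks, a partner may have passed the filter through its 12-week libraries alone. A rise of such a partner would be set by the filter, so the higher calls are given without a reading. At 0.01, 0.1 and 1 µM 6, 5 and 4 of 11 passed, beside 42.7, 40.3 and 30.1%. The smallest p-values belonged to fibronectin FN1 (2427 to 1026 CPM, log2 fold change −1.23), the tenascin TNXB (106 to 59.9 CPM, −0.82) and thrombospondin THBS1 (2718 to 1958 CPM, −0.46). The small proteoglycan DCN, abundant in many fibrillar tissues, was at 0.145 TPM, while SPARC, which binds collagen, was at 827 TPM.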

How the data were processed

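RNA of 32 libraries, 4 per group, was measured by stranded poly(A) sequencing on a DNBSEQ platform. Groups and vials were taken from the sample labels. The submitters' processing notes name HISAT2 2.0.4, Bowtie2 2.2.5 and RSEM 1.2.8 with GRCh38.p14. The authors deposited expected counts per gene without normalization, which were rounded to whole numbers here and give CPM after division by the library total. The TPM values that the authors deposited, corrected for length, served for levels, and their deposited FPKM values for an alternative order of the chains. Their normalized counts were not used.

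Tests were made with edgeR 4.0.16 (TMM, filterByExpr, robust quasi-likelihood fit, two-sided) in R 4.3.3 with limma 3.58.1, after a check on simulated counts, and p-values were adjusted over all genes tested. The 16 libraries of a time entered 1 fit for PFOS against control, and all 32 entered 1 fit for 12 against 6 weeks and for the interaction. SE is the size of the log2 fold change divided by the square root of F. Exact permutation tests used scipy 1.17.1. At these depths precision is set mainly by the spread between replicate cultures, in which vial, flask and library preparation cannot be told apart. Replicate libraries differed beyond counting noise and 0 pairs were identical.

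Members and gene lists were chosen with earlier results of these data known. Chains at a mean of at least 1 TPM or with a call were named with group values, and the 5 highest chains and those called with PFOS with every library. Of the lists, genes called with PFOS and the 3 with the smallest p for time in the control were named, and the other list genes named (SERPINH1, P4HB, ITGB1, DCN, SPARC) were chosen after their values were seen. The labels say that each vial's flask was divided among the groups, so replicate numbers pair the samples. Deviations from the group means were compared between libraries of 1 vial, with a mean r of 0.0498 to 0.0834 at 6 weeks and −0.0928 to 0.152 at 12 weeks. These values were low throughout. They were lowest between control and 1 µM at 12 weeks, so the pairing of those libraries is uncertain. Alternatives were DESeq2 1.42.0, RLE normalization, no or a stricter filter, the vial block, leaving out libraries, and other sets of libraries in the fit.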

Additional observations from a re-analysis of the deposited data

Results flagged for a closer look

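In 2 of 56 sets of 4 libraries (7 chains in 8 groups), 1 library lay far from the other 3 by Dixon's test at the 95% level, and chance alone flags about 1 in 20 sets. COL4A1 at 1 µM PFOS and 12 weeks measured 335 TPM in replicate 1 against 293 to 295 TPM in the others. COL6A1 in the 12-week control measured 17.0 TPM in replicate 1 against 14.1 to 14.4 TPM in the others.

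The change with 0.1 µM PFOS differed between 12 and 6 weeks for 2 chains by the interaction test. For COL12A1 the difference was 0.33 on the log2 scale (adjusted p 0.0445, edgeR), with all 4 libraries below the controls at 6 weeks and all 4 above at 12 weeks. For COL13A1 it was −1.0002 (adjusted p 0.0445, edgeR), with all 4 libraries below the controls at 12 weeks alone. Over the alternatives the adjusted p lay between 0.00721 and 0.593 for COL12A1 and between 0.0204 and 0.429 for COL13A1.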

How the results depend on the processing

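No alternative reversed the direction of a chain's change that was called in the main fit. Chains that were not called did change sign. At 0.01 µM and 12 weeks, 22 of 25 chains were below 0 with all libraries and 17 without replicate 3. At 0.1 µM and 6 weeks, 3 chains were called, and 0 with all 32 libraries in 1 fit. Leaving out replicates in turn gave 0 to 2. At 0.1 µM and 12 weeks, 1 chain was called, 2 with DESeq2, 2 with the vial as replicate block, and 0 in a fit of the 8 libraries compared. Without replicates in turn or without the third control library it was 0 to 2. At 1 µM and 6 weeks DESeq2 called 2 chains in place of 0. For the interaction at 0.1 µM, 2 chains were called, 0 with no filter and 0 with at least 10 counts in every library, and 0 to 1 without single replicates or the third control library. At 1 µM DESeq2 called 2 interactions in place of 0. Between 6 and 12 weeks at 1 µM, the stricter filter left 22 chains and gave 10 calls in place of 16. Of 74 calls of chains between times, 55 held under every alternative that tested the chain and 19 were lost under at least 1. A setting that dropped a chain was not counted as a loss. COL11A1, COL1A2 and COL4A4 were thus tested in 9 alternatives and COL14A1, COL15A1 and COL6A3 in 10, against 11 for the other chains. The 74 include the calls of COL11A1, COL1A2, COL4A4 and COL15A1, whose fall was set by the filter. All calls of COL11A1, COL1A2 and COL4A4 are among the 55, so the 55 do not measure stability alone. With FPKM in place of TPM, 19 in place of 21 chains reached 1, in the same order. The vial as a block changed no other count by over 1.5 times, but added COL12A1 at 0.1 µM and 6 weeks. DESeq2, a fit without replicate 2 and a fit of the 8 libraries compared added it as well. RLE in place of TMM moved no count of chains, and depth limits the chains under 10 counts. The cause of the changes was not tested.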
